A study of Homo sapiens with 6 samples.

Results

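A set of 9 genes of extracellular signal-regulated kinase (ERK) signalling were examined, of 17721 genes listed in either of 2 deposited tables of FPKM. They were taken by gene name: the kinase genes MAPK3, MAP2K1 and MAP2K2, and the feedback inhibitor genes SPRY2, SPRY4, SPRED1, SPRED2, DUSP4 and DUSP6. All 9 were among the 14270 genes listed in both tables. The set was chosen by the FPKM of SPRY2 and MAPK3, which differed between the tables, so the values below are a description and carry no test.

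The labels described 6 RNA samples of U2OS, an established human osteosarcoma cell line: 2 immunoprecipitates and 1 input from cells with a short hairpin RNA against DNMT1 (shDNMT1, genotype DNMT1 knockdown), and 2 immunoprecipitates and 1 input from control cells (shNC, genotype WT). The immunoprecipitates held RNA that came down with a mutant of NSun2, an RNA cytosine methyltransferase, and the treatment label names U6 and shDNMT1 cells as those transfected with the plasmid of that mutant. DNMT1 maintains cytosine methylation in DNA. The labels give neither the mutation nor the hairpin sequence. No column of the tables says which of these samples it came from. They are therefore called the longer table, with 16824 genes, and the shorter table, with 15167 genes, and neither stands for knockdown or control cells. Each gene had 1 value per table, so no replicate spread, SD or test could be given. FPKM divides the fragments of a gene by its transcript length and by all mapped fragments, so it allows values to be compared between genes, but the number of fragments behind a value is unknown. A level here is the share of a gene in the RNA sequenced: where a table came from an immunoprecipitate, that would be the RNA brought down and not the RNA of the cells, and the tables do not say. In a pool of cells, fewer cells expressing a gene and less RNA per cell cannot be told apart.

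DNMT1 was listed at 9.36 FPKM in the longer table and 23.3 FPKM in the shorter, and NSUN2 at 1147 FPKM in the longer and 559 FPKM in the shorter. Of 8 mesenchymal and osteoblast markers, 6 were listed in the longer table and 3 in the shorter. Vimentin (VIM) was listed at 407 FPKM in the longer and 262 FPKM in the shorter table and the alkaline phosphatase ALPL at 38.0 FPKM in the longer and 78.4 FPKM in the shorter. Another alkaline phosphatase, ALPP, is outside the list and is not counted here as an osteoblast marker. It was higher than ALPL, at 214 FPKM in the longer and 342 FPKM in the shorter. The collagen COL1A1 was listed at 0.45 FPKM in the longer table and 3.04 FPKM in the shorter. The osteoblast transcription factor RUNX2 was in the longer alone, at 0.81 FPKM, as were BGLAP at 0.14 FPKM and SPARC at 0.033 FPKM. Thus 4 of the 6 in the longer table were under 1 FPKM, and SP7 and COL1A2 were in neither. Apart from VIM and ALPL, the markers of this list were low or absent, although the labels name an osteosarcoma line. From a list of 5 genes marking other kinds of cell, the epithelial CDH1 and EPCAM were present, together at 0.95 FPKM in the longer table and 10.6 FPKM in the shorter, and CDH1 alone at 0.39 FPKM in the longer and 8.42 FPKM in the shorter. PTPRC, PECAM1 and ALB were in neither table. The part of these differences in the values below was not tested.

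ERK signalling runs from a receptor through a RAS GTPase to RAF kinases, which phosphorylate MEK1 and MEK2, which in turn phosphorylate the ERK kinases. Active ERK induces its own inhibitors: Sprouty and SPRED proteins act near RAS and RAF, and dual-specificity phosphatases (DUSPs) remove phosphate from ERK itself. Transcript levels of these inhibitors are commonly read as a sign of ERK output, but FPKM measures neither phosphorylation nor protein.

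Among the 9 members, the 3 kinase genes were the abundant ones in both tables and the 6 inhibitors the low ones. Of the 3 kinase genes 2 stood lower in the longer table, whereas all 6 inhibitors stood higher there, DUSP6 by so little that its sign changed once ratios were centred by gene density or by level. The kinase genes summed to 171 FPKM in the longer table and 232 FPKM in the shorter. The 6 member inhibitors summed to 36.5 FPKM in the longer and 19.3 FPKM in the shorter. The list of other feedback inhibitors, described below, summed to 201 FPKM in the longer and 168 FPKM in the shorter. That list holds 17 genes against 6, so the sums do not compare the level per gene. Its genes differed widely: DUSP1 stood at 51.6 FPKM in the longer and 37.7 FPKM in the shorter table, and SPRED3 at 0.62 FPKM in the longer and 0.49 FPKM in the shorter. Transcripts of the 6 member inhibitors amounted to 0.214 of those of the member kinases in the longer table and 0.0833 in the shorter. No scaling between the tables can alter this ratio. Its parts hold SPRY2 and MAPK3, by which the set was chosen, so nothing is read from its difference between the tables. Most of the kinase sum was MAP2K2, at 130.3 FPKM in the longer table and 174 FPKM in the shorter. Differences between the tables are given as log2((longer + 1)/(shorter + 1)), with a pseudocount of 1 FPKM that understates the difference of low genes. On this scale the median over the 9 genes was 0.47, against 0.05 over the 14270 genes in both tables, and it was 0.27 with ratios centred by gene density. Of those 14270 genes, 54.8% were higher in the longer table, as were 7 of the 9 members. SPRY2 was at least 2-fold higher in the longer table and MAPK3 at least 2-fold lower. Of all genes in both tables, a share of 3.72% lay at least 2-fold apart, 2.04% higher and 1.68% lower in the longer table. Among the 7135 of them above the median mean level of 4.93 FPKM the share was 2.56%, with 1.7% higher and 0.869% lower. That is 121 genes higher and 62 lower, but 88 higher and 79 lower once the all-gene median is subtracted. Since the members were chosen for these 2 genes, nothing is read from that count.

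**Figure D1:**
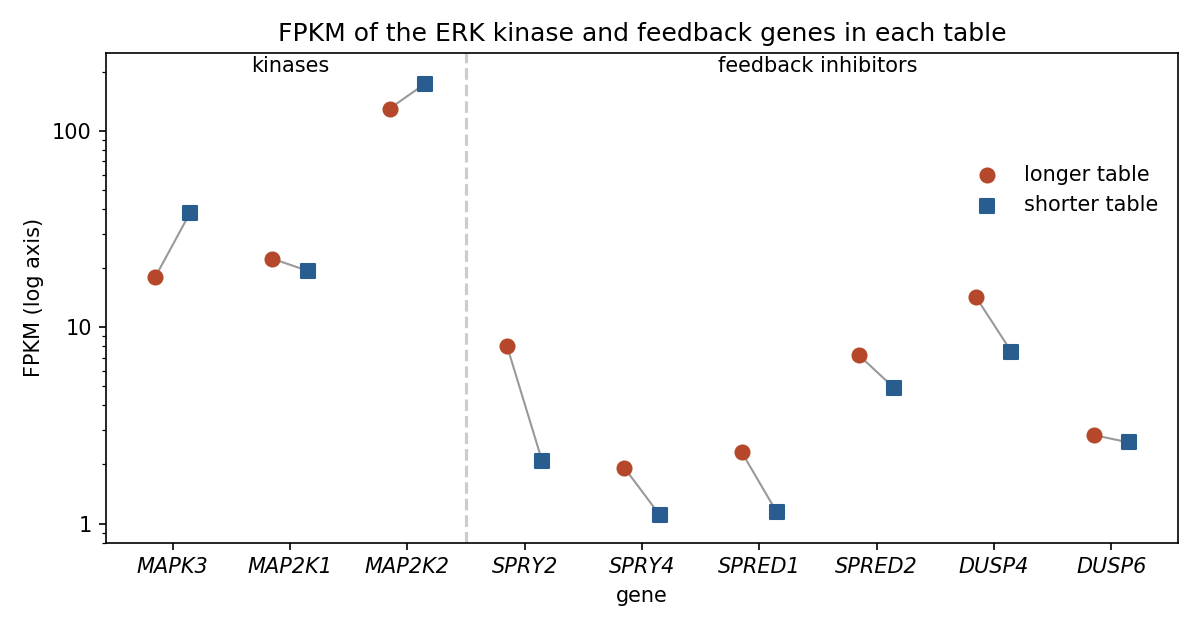
FPKM on a log axis (vertical) of the 9 genes (horizontal), with 1 value per table: circles, on the left of each pair, are the longer table and squares the shorter, and the dashed line divides kinases from inhibitors. MAPK3 and MAP2K2 sit lower in the longer table, and the other 7 genes sit higher there.

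The sequences at the gene starts are shown for 4 members, the ones with the highest ratios (SPRY2 and SPRED1, since no window of DUSP4 was used here) and the lowest (MAPK3 and MAP2K2), because the study concerns DNMT1, which acts on CG dinucleotides. Each window holds 250 bases before and 50 after the first start that RefSeq gives (GRCh38.p14), on the strand of the gene, and capitals mark every CG. These starts are not always the ends of the listed loci given below. The windows of MAPK3 and SPRED1 lie inside the listed locus, and that of SPRY2 lies outside it. The tables hold no methylation values.
SPRY2, chr13:80341077-80341376, minus strand: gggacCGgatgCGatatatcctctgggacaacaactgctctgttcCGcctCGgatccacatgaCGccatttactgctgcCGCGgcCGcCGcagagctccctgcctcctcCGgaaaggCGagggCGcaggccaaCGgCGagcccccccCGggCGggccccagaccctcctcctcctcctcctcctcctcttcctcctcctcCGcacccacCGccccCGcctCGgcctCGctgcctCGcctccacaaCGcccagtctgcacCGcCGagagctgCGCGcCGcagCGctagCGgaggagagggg
SPRED1, chr15:38252586-38252885, plus strand: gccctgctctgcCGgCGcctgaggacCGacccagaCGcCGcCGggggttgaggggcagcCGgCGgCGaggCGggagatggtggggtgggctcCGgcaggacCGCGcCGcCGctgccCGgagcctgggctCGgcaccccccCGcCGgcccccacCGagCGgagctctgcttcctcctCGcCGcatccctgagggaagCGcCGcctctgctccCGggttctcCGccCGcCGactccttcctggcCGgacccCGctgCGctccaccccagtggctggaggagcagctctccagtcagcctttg
MAPK3, chr16:30123171-30123470, minus strand: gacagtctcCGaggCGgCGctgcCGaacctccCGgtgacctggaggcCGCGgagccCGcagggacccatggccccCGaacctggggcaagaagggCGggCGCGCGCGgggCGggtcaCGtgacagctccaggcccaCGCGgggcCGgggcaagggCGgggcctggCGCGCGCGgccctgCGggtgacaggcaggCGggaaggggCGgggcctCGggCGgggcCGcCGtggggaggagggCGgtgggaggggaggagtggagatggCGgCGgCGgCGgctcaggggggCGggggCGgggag
MAP2K2, chr19:4124073-4124372, minus strand: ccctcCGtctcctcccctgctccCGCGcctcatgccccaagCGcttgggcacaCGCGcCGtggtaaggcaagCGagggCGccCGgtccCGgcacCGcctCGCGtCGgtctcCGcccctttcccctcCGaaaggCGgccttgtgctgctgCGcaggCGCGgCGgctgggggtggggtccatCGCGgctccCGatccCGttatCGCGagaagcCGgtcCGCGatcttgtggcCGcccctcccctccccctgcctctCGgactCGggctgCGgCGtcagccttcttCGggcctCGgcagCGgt

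SPRY2 had 30 CG dinucleotides in this window, SPRED1 32, MAPK3 38 and MAP2K2 39. Windows were matched for 8 of the 9 members, and their counts ran from 19 in DUSP6 to 39, against a median of 14 over the first windows of 27326 RefSeq genes. RefSeq gives 5 further starts for these members, whose windows held 4 to 15. At the first start, genes higher and genes lower in the longer table thus both lay above the median. The 27326 windows were not limited to genes listed in the tables. Their median and motif shares are therefore not those of listed genes, and nothing particular to the members is read from them. The ETS core CGGAAG, searched on both strands, was in the first window of SPRED2 and DUSP6, 2 of 8 members, and in 19.9% of the first windows of all genes. The AP-1 motif TGANTCA was in none of the 8 first windows, in 1 of the 13 windows of the members, and in 7.73% of the first windows of all genes. The GC box GGGCGG was in 7 of the 8, in 8 of the 13, and in 44.5% of the first windows of all genes. The MAPK3 window held 8 copies. These are matches of letters in short windows and do not show binding.

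MAPK3 encodes ERK1, a kinase at the end of the cascade. It was listed at 18.0 FPKM in the longer table and 38.5 FPKM in the shorter. The value in the longer table was 0.467 of that in the shorter, and the log2 ratio was -1.06. Of the 1427 genes in the same decile of mean FPKM, 6 had a lower ratio. The set was chosen because MAPK3 differed, so nothing is read from this rank. The gene (ENSG00000102882; chromosome 16, 30114105 to 30123506, hg38) shared its locus with no other listed gene. The nearest listed gene before it, GDPD3, ended 0.249 kb away and was listed in the longer table alone, at 0.96 FPKM.

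MAP2K2 encodes MEK2 and was the most abundant member, 442nd of all genes in the longer table and 326th in the shorter. It was listed at 130.3 FPKM in the longer table and 174 FPKM in the shorter, a log2 ratio of -0.42 (ENSG00000126934; chromosome 19, 4090321 to 4124129). MAP2K1, which encodes MEK1, was listed at 22.3 FPKM in the longer table and 19.4 FPKM in the shorter, a log2 ratio of 0.19. The MAP2K1 locus (ENSG00000169032; chromosome 15, 66386817 to 66497813) was shared with SNAPC5, a subunit of the complex that activates small nuclear RNA genes, at 4.15 FPKM in the longer and 4.32 FPKM in the shorter table. It was also shared with CTD-3185P2.1, listed in the longer table alone at 0.26 FPKM, and fragments at such a locus could be divided between the genes upstream. MAP2K2 exceeded MAP2K1 by 5.83-fold in the longer table and 8.96-fold in the shorter. Of the MEK pair, the gene that was lower in the longer table had more listed genes around it, with 56 starts 1 Mb or less away for MAP2K2 and 23 for MAP2K1.

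**Figure D2:**
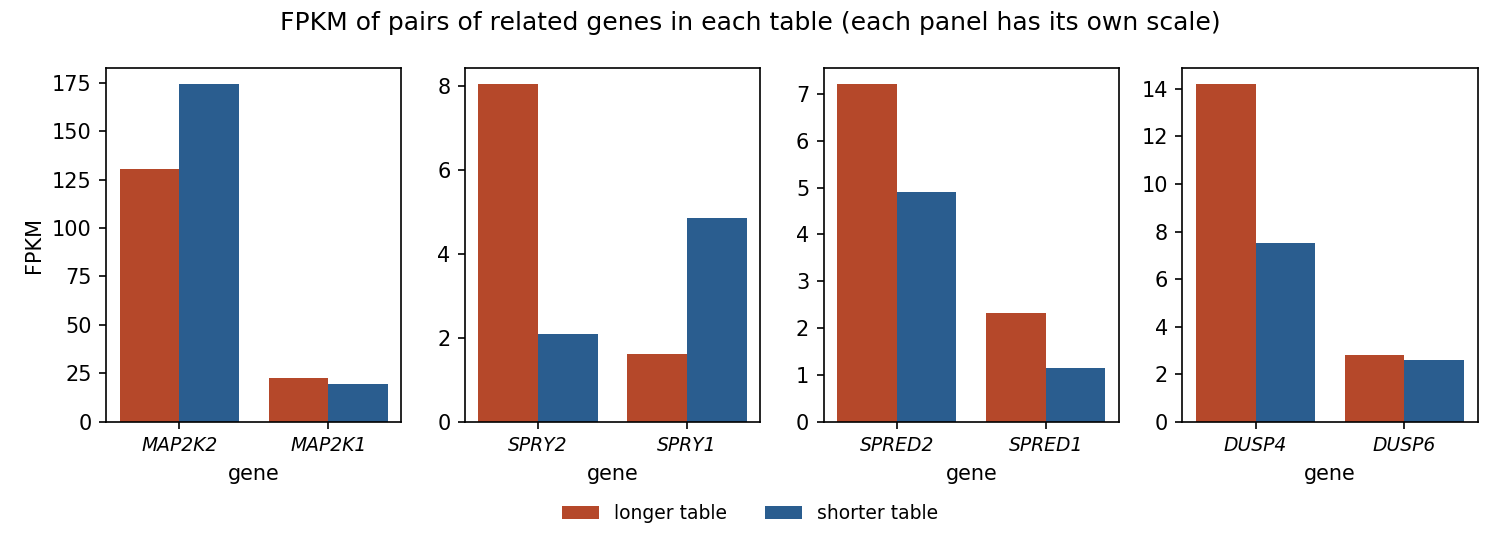
FPKM (vertical axis, from 0, on a scale of its own in each panel) of 4 pairs of related genes, with the longer table as the left bar and the shorter as the right bar of each gene, 1 value per bar. The order of the pair turns round between the tables for SPRY2 and SPRY1, and is the same in both tables for the other 3 pairs.

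SPRY2, which encodes a Sprouty protein that restrains receptor tyrosine kinase signalling to ERK, differed most. It was listed at 8.03 FPKM in the longer table and 2.08 FPKM in the shorter. That is 3.86-fold without a pseudocount, and the log2 ratio was 1.55. The ratio ranked 22nd from the top among the 14270 genes and 5th among the 1427 genes of similar level. The set was chosen because SPRY2 differed, so nothing is read from these ranks. The gene (ENSG00000136158; chromosome 13, 80335976 to 80340951) shared its locus with no other listed gene and had 1 other listed gene with a start 1 Mb or less away. NDFIP2, the nearest listed gene before it at 780 kb, was listed at 19.9 FPKM in the longer and 14.2 FPKM in the shorter table. The nearest one after it, the pseudogene PTMAP5 at 1349 kb, was listed in the longer table alone at 0.23 FPKM.

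SPRY4, another Sprouty gene, stood higher in the longer table too but at a low level. It was listed at 1.93 FPKM in the longer table and 1.11 FPKM in the shorter, a log2 ratio of 0.47. Its locus (ENSG00000187678; chromosome 5, 142310427 to 142698070) also held the growth factor gene FGF1, in the longer table alone at 0.28 FPKM, and the noncoding SPRY4-IT1, in the shorter alone at 0.48 FPKM. With the genes of the locus summed, the log2 ratio was 0.31. SPRY1, a Sprouty gene outside the set, went the opposite way, at 1.60 FPKM in the longer and 4.84 FPKM in the shorter table, a log2 ratio of -1.17. SPRY2 made up 83.4% of the summed SPRY2 and SPRY1 transcripts in the longer table and 30.0% in the shorter. SPRY3 was listed in the longer table alone, at 0.11 FPKM. The Sprouty genes therefore did not share 1 direction, and the positive ratios were those of SPRY2 and SPRY4.

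The SPRED genes encode Sprouty-related proteins that bring the RAS-inactivating protein neurofibromin to the membrane. SPRED1 was listed at 2.31 FPKM in the longer table and 1.14 FPKM in the shorter, a log2 ratio of 0.63 (ENSG00000166068; chromosome 15, 38252326 to 38357249). Without the pseudocount this was 2.03-fold, and with it the difference stayed under 2-fold. SPRED2 was listed at 7.21 FPKM in the longer table and 4.91 FPKM in the shorter, a log2 ratio of 0.47 (ENSG00000198369; chromosome 2, 65310851 to 65432637). SPRED2 was the higher of the pair in both tables, by 3.12-fold in the longer and 4.30-fold in the shorter. SPRED3 was low, at 0.62 FPKM in the longer and 0.49 FPKM in the shorter table. NF1, the gene of neurofibromin, was listed at 14.8 FPKM in the longer and 16.8 FPKM in the shorter table.

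DUSP4 encodes a nuclear phosphatase that inactivates ERK, and DUSP6 a cytoplasmic one. DUSP4 was listed at 14.2 FPKM in the longer table and 7.50 FPKM in the shorter, a log2 ratio of 0.84, second to SPRY2 among the members (ENSG00000120875; chromosome 8, 29333064 to 29350668). It was 1.89-fold higher without the pseudocount. DUSP6 barely differed, at 2.83 FPKM in the longer table and 2.59 FPKM in the shorter, a log2 ratio of 0.09 (ENSG00000139318; chromosome 12, 89347232 to 89353271). A second identifier at the DUSP6 locus was listed at 0.17 FPKM in the longer and 0.20 FPKM in the shorter table. Thus the 2 phosphatase genes, both commonly used as readouts of ERK activity, were not alike, and DUSP4 exceeded DUSP6 by 5.02-fold in the longer table and 2.89-fold in the shorter.

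The rest of the pathway was described with 6 lists. In the core cascade, the RAS and RAF genes with their scaffolds, 8 of 13 genes were higher in the longer table, with a median log2 ratio of 0.22, or 0.12 with ratios centred by gene density. LAMTOR3, a scaffold that holds MEK1 and ERK1 on late endosomes, was the 1 gene at least 2-fold apart, at 5.62 FPKM in the longer and 1.58 FPKM in the shorter table. PEBP1, an inhibitor of RAF signalling to MEK, was listed at 118 FPKM in the longer and 100.5 FPKM in the shorter table. Adaptors and regulators of RAS were divided, 7 of 13 higher, with a median of 0.003, and none reached 2-fold. SHC1, the adaptor with the highest level, was listed at 89.8 FPKM in the longer and 90.2 FPKM in the shorter table.

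The list called other feedback inhibitors held 17 genes, and it was not limited to DUSPs that act on ERK or are induced by it. Its counts therefore do not describe ERK feedback alone. Of the 17 genes 15 were in both tables. Of those 10 were higher in the longer table, as were 54.8% of all genes in both, and the median log2 ratio was 0.25. Besides SPRY1, DUSP9 was at least 2-fold lower in the longer table, at 2.68 FPKM there and 6.45 FPKM in the shorter. DUSP5, a nuclear phosphatase of ERK, was listed at 21.2 FPKM in the longer and 14.4 FPKM in the shorter table. This list therefore lay on both sides of 0, with log2 ratios from -1.17 to 0.71, and its median was 0.12 with ratios centred by gene density.

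A short list of 8 other transcripts induced by ERK signalling held 7 genes found in the tables, all of them higher in the longer one, with a median log2 ratio of 0.51, although IER3 was below 0 with ratios centred on all genes. None reached 2-fold. This holds for the list only: SPRY1 and ETV4, which ERK also induces and which stood in other lists, were lower in the longer table. MYC was listed at 164 FPKM in the longer and 126 FPKM in the shorter table, and cyclin D1 (CCND1) at 23.7 FPKM in the longer and 16.4 FPKM in the shorter. FOSL1, an AP-1 subunit, had the highest ratio of the list, 0.82, with 24.4 FPKM in the longer and 13.4 FPKM in the shorter table. IER3 had the lowest, 0.04, with 57.7 FPKM in the longer and 56.1 FPKM in the shorter. FOSL1 and IER3 were named after their values were seen. EPHA4 was in neither table.

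Kinases and transcription factors downstream of ERK were divided, with 8 of 15 higher in the longer table and a median of 0.04. The share higher in the longer table was 54.8% over all genes in both tables. The ETS factors ETV4 and ETV5, both induced by ERK, went apart: ETV4 was listed at 27.9 FPKM in the longer and 38.6 FPKM in the shorter table, and ETV5 at 15.5 FPKM in the longer and 11.0 FPKM in the shorter. ELK1, which ERK phosphorylates, was listed at 59.6 FPKM in the longer and 65.3 FPKM in the shorter. In the other MAPK modules, those of JNK, p38 and ERK5, 5 of 12 genes were higher in the longer table and the median was -0.06. MAP2K3, an activator of p38, was listed at 45.4 FPKM in the longer and 40.0 FPKM in the shorter. The lists were chosen with results of these tables known, so their counts describe these 2 tables.

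**Figure D3:**
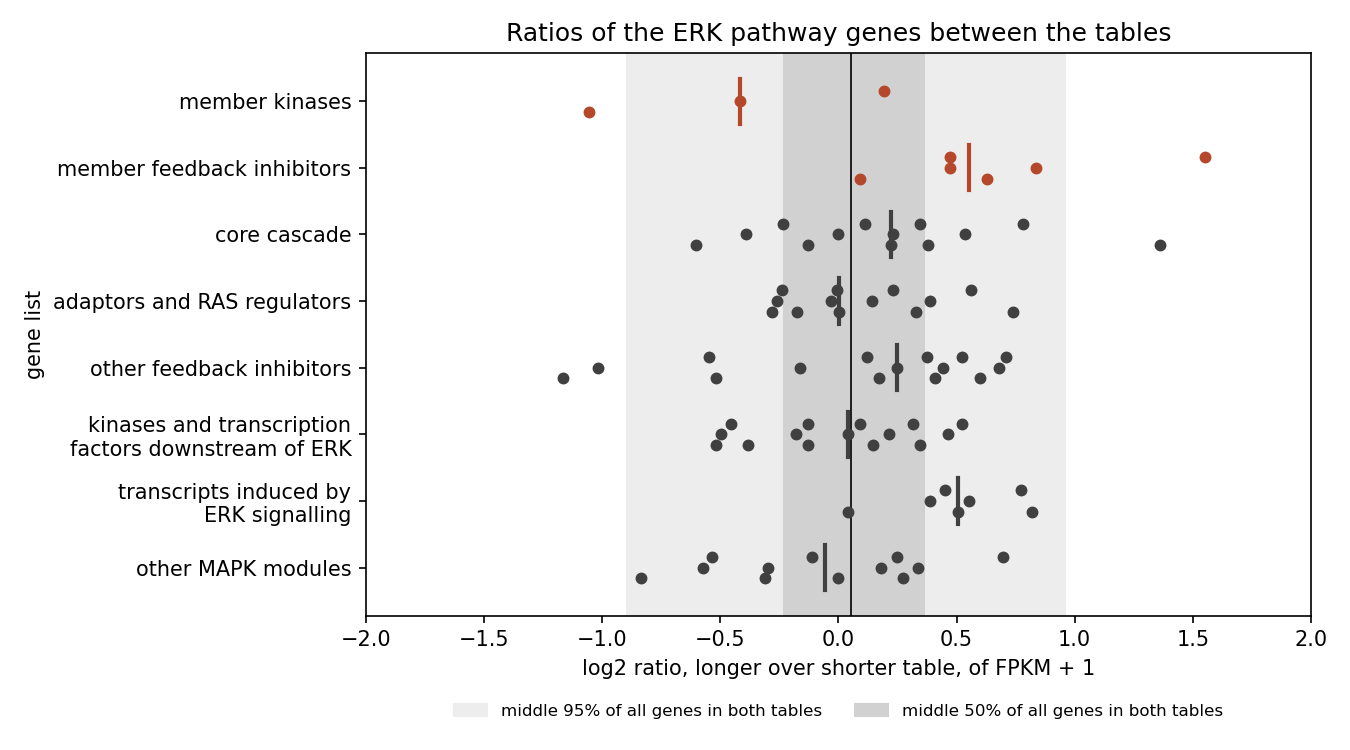
Log2 ratio of FPKM + 1, longer over shorter table (horizontal), for each gene (points) of the kinase and inhibitor members and the 6 other lists (vertical), with the list median as a vertical bar. Shading marks where the middle 50% and 95% of the 14270 genes in both tables lie and the thin line is their median, 0.05; the 7 induced transcripts and the 6 inhibitor members all lie right of 0, with IER3 left of the thin line and DUSP6 below its own density class.

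Across the genome the ratio varied with gene density, counted as the listed genes whose start lay 1 Mb or less away. Genes were divided into 5 classes. In the sparsest class, with up to 10 neighbours, the log2 ratio had its median at 0.20, and in the densest class, with 46 to 122 neighbours, at -0.12. The members were spread unevenly over these classes. SPRY2, SPRED1, SPRED2 and DUSP6 lay in the sparsest class, DUSP4 in the next and SPRY4 with MAP2K1 in the middle one, while MAPK3, with 102 neighbours, and MAP2K2, with 56, lay in the densest. Of the 6 inhibitors 5 thus lay in the 2 sparsest classes, where ratios ran high, and the 2 lower kinases where ratios ran low.

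With each ratio centred on the median of its own density class, SPRY2 stood at 1.35 and DUSP4 at 0.68. SPRED1 stood at 0.43, SPRY4 at 0.40 and SPRED2 at 0.27. DUSP6 came out at -0.11, so 5 of the 6 inhibitors remained above 0. MAPK3 stood at -0.94, which is just under 2-fold, MAP2K2 at -0.29 and MAP2K1 at 0.12. Among the 2813 genes of its density class, 54 had a lower ratio than MAPK3, and among the 3132 of its own class, 9 had a higher ratio than SPRY2. MAPK3 and SPRY2 were the genes by which the set was chosen, so nothing is read from their ranks. All 7 induced transcripts lay above the median of their density class, with a median distance of 0.48. That list was chosen with results of these tables known, so nothing is read from the count. Of genes in other lists that ERK also induces, SPRY1 stood at -1.37, ETV4 at -0.33 and ETV5 at 0.39. What underlies the relation with density was not tested.

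**Figure D4:**
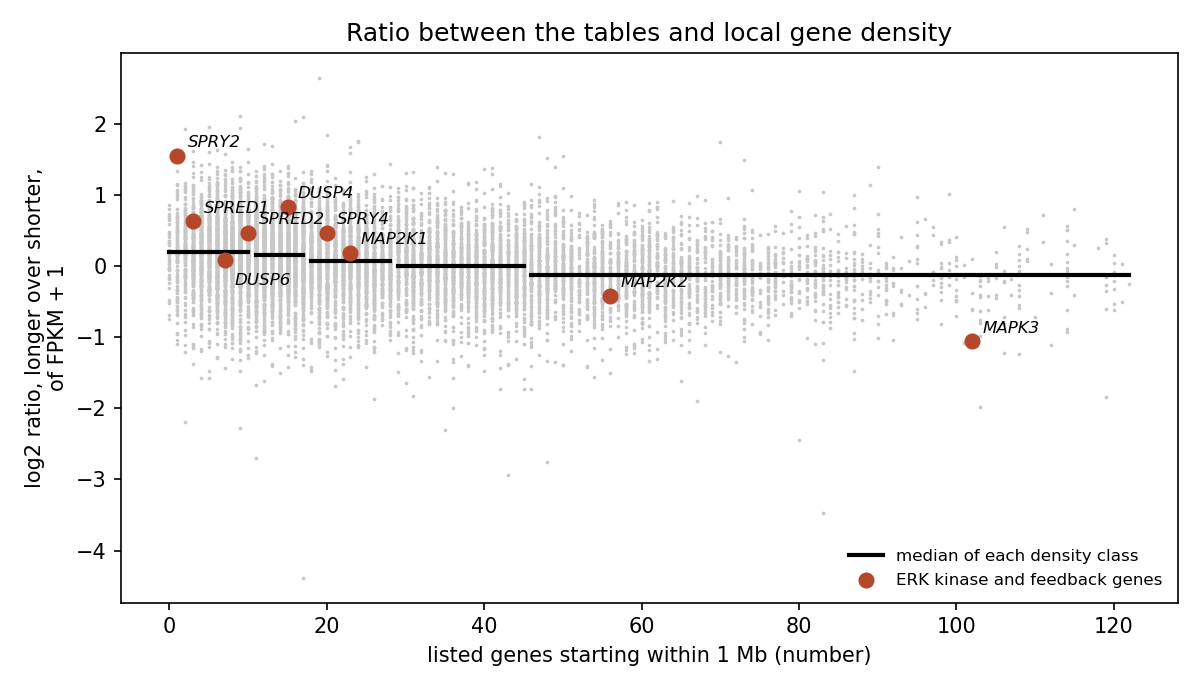
Log2 ratio of FPKM + 1, longer over shorter table (vertical), against how many listed genes start 1 Mb or less away (horizontal) for all 14270 genes in both tables (grey points), with the 9 members named and black lines at the median of each density class. SPRY2 lies far above the line of the sparsest class, at 0.20, and MAPK3 far below that of the densest, at -0.12.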

How the data were processed

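Input RNA and RNA of an NSun2 co-immunoprecipitate were labelled, and the values used were 2 deposited tables of FPKM per gene, computed by the authors, whose columns are gene identifier, gene name, locus and FPKM per the file headers. The 2 FPKM columns named no sample, so no sample was assigned to either and no comparison of the labelled groups was made. Per the submitters' processing notes, hg38 was the genome build, and BWA 0.7.13, cutadapt 1.12 and MACS 1.4.2 were among the tools. The tool that made the FPKM, and whether libraries were pooled, are not given in the sources used here.

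Locus starts were raised by 1, after which 1824 of 7878 genes alone at their locus matched the RefSeq start, against 148 as deposited. Ratios were log2((longer + 1)/(shorter + 1)) for genes in both tables. Members are all described whatever their level, and 6 of the 9 lay above the median mean of 4.93 FPKM. The members and lists were chosen with earlier results of these data known. Named genes were the members, genes at their loci, neighbours of MAPK3 and SPRY2, and from each list the genes at least 2-fold apart or, failing those, the most abundant, with partners set by name. Besides these, NF1, SPRY3, SPRED3, FOSL1, IER3, EPHA4 and ALPP were added after their values were seen. A further 2 genes of the core cascade list are not reported here. Gene density counts other genes listed in either table. The ratio and the 2-fold rule were tested on simulated data. Python 3.11.15, pandas 2.3.3, numpy 2.4.6 and matplotlib 3.10.9 were used, and promoter windows came from RefSeq. The depth of either table is unknown.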

Additional observations from a re-analysis of the deposited data

How the results depend on the processing

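No paired analysis was possible because each table holds 1 unlabelled column, and the contrast of immunoprecipitates, its replicate block and leaving out replicates were not run for the same reason. The log2 ratio of SPRY2 ran from 1.35 to 1.90 over 6 settings and that of MAPK3 from -1.11 to -0.94, where -0.94, under 2-fold, came with ratios centred on the same density class. The sign of DUSP6 changed with that centring (-0.11) and with centring on the same decile of mean FPKM (-0.04). The other members kept their sign. Centring by density took the median of the 9 members to 0.27, of the core cascade to 0.12, of the other feedback inhibitors to 0.12 and of the member inhibitors to 0.41. Centring on all genes turned those of the adaptors (-0.05) and of the factors downstream of ERK (-0.01) and centring by density turned the second of these to -0.11. Of the 7135 genes above the median level, 121 were 2-fold or more higher in the longer table and 62 were lower, and with ratios centred on all genes 88 were higher and 79 lower. Without a filter 291 were higher and 240 lower, and from 10 FPKM upwards 58 were higher and 31 lower. With a pseudocount of 0.1 FPKM 179 were higher and 97 lower. The filter and the pseudocount change these counts by construction. The shifts with centring rest on medians found in these data. The median was 0.05 over all genes, 0.20 in the sparsest density class and -0.12 in the densest. Centring by decile of level, and list medians centred by density, were added after the data had been seen.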
